A study of Homo sapiens with 2 samples.

Results

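Oxidative phosphorylation genes were taken as every symbol of the tables that begins with NDUFA, NDUFB, NDUFC, NDUFS, NDUFV, UQCR, ATP5, COX4I, COX5, COX6, COX7 or COX8, together with SDHA, SDHB, SDHC, SDHD and CYC1. This rule, which uses names and no measured value, gave 101 of the 23456 symbols. Of these, 86 were assigned to the structural complexes: 37 to complex I, 4 to complex II, 10 to complex III, 19 to complex IV and 16 to complex V. Another 7 were NDUFAF genes, which encode assembly factors of complex I, and 8 were readthrough, pseudogene, antisense or ATP5S-related symbols that were kept apart. The RNA came from G401, a human cell line established from a rhabdoid tumor of the kidney. A single library came from cells with a guide RNA against the homeobox gene HOXB13 (labelled sg1-HOXB13), and another single library from cells with a control guide (labelled sg-control). Both cultures were grown in RPMI medium with serum and were harvested at 80% confluency. The sources used here do not give whether the cells were a pool or a clone, nor where the guide cuts. As each group has a single library, no difference given here could be set against replicates and no significance test was made.

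Oxidative phosphorylation couples electron transport in the inner mitochondrial membrane to ATP synthesis. Complex I takes electrons from NADH and complex II from succinate, both pass them through coenzyme Q to complex III, and cytochrome c carries them to complex IV, where oxygen is reduced. Complexes I, III and IV pump protons, and complex V, the ATP synthase, uses the gradient. The genes studied here are all nuclear. The subunits that mitochondrial DNA encodes were not analysed here, as no symbol of theirs had a value under the spellings searched. In dividing tumor cells the respiratory chain also regenerates the NAD needed for synthesis of aspartate and nucleotides.

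Levels are in FPKM, which divides the fragments of a gene by its length and by the size of the library. A ratio is the log2 of FPKM plus 1 with the HOXB13 guide divided by FPKM plus 1 with the control guide, which understates differences of low genes. Genes called tested below reached 1 FPKM with at least 1 of the guides, and the word stands for this filter only. The steps between low FPKM values put the depth at about 23.5 M reads with the HOXB13 guide and 24.0 M reads with the control guide. HOXB13 had 4.50 FPKM with the HOXB13 guide and 14.6 FPKM with the control guide. SMARCB1, whose loss marks rhabdoid tumors, had 0.0577 and 0.113 FPKM with the same guides in that order, and the mesenchymal filament gene VIM had 568 and 560 FPKM. The leukocyte gene PTPRC was listed at 0 with the HOXB13 guide and had 0.0165 FPKM with the control guide, the endothelial gene CDH5 was listed at 0 in both, and PECAM1 had 0.0214 FPKM with the HOXB13 guide and was listed at 0 with the control guide. The epithelial keratin genes KRT8 and KRT18 had 1810 and 1572 FPKM with the HOXB13 guide, against 1273 and 1023 FPKM with the control guide. EPCAM, another epithelial gene, had 5.72 FPKM with the HOXB13 guide and 8.68 FPKM with the control guide, and the proximal tubule gene LRP2 was listed at 0 with the HOXB13 guide and had 0.00268 FPKM with the control guide. The part of these genes in the results below was not tested. In bulk RNA, fewer cells of a type and less RNA per cell cannot be told apart.

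Most subunit mRNAs were somewhat higher with the HOXB13 guide, by less than 2-fold in nearly every case. Of the 86 structural subunits 80 were tested, and 61 of these had a ratio above 0, where 45.6% of all 11970 tested genes did. At least 2-fold higher were 4 subunits (NDUFB8, NDUFA4, COX6B1 and ATP5G1), where 4.25% of all tested genes were, and 2 were at least 2-fold lower (COX6B2 and NDUFA4L2), where 4.51% of all were. The share past 2-fold was therefore near the background. When centred on the housekeeping genes 42 of the 80 were above 0, their median was 0.0046, and ATP5G1 alone was past 2-fold upwards. A limit of 1.5-fold, chosen after the data were seen, was passed upwards by 20 of the 80, with a background of 11.8%, and downwards by 2, with a background of 14%. The median log2 ratio of the 80 was 0.31, with quartiles of 0.06 and 0.57, and that of all tested genes was −0.05, with quartiles of −0.38 and 0.29. Abundance did not separate these backgrounds much: among the 4139 tested genes with a mean of at least 20 FPKM, 46.7% had a ratio above 0, 3.60% were past 2-fold upwards and 4.01% downwards, and 11.4% were past 1.5-fold upwards and 13.5% downwards.

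All structural subunits together held 2.79% of the summed FPKM of the HOXB13-guide library and 2.28% of that of the control-guide library, and the ratio of their summed FPKM, not divided by these totals, was 1.24. A list of 26 housekeeping genes, none of them a member, had a median log2 ratio of 0.31 and 19 genes above 0. Their ratios were widely spread, with quartiles of 0.01 and 0.63 and a range from −0.81 to 1.04. Farthest from 0 were B2M (log2 1.04), GAPDH (0.95), CHMP2A (−0.81) and REEP5 (0.81). The subunit median was thus as high as that of the housekeeping genes, and their part in the result was not tested. The subunit levels of the libraries were closely correlated, with a Pearson correlation of 0.957 between log2(FPKM + 1) values across the 80 genes, which share both libraries and are not replicates. Highest of all was COX7C, a small subunit of complex IV, at 984 FPKM with the HOXB13 guide and 792 FPKM with the control guide, and next came UQCRH and ATP5E with the HOXB13 guide, and ATP5E and ATP5A1 with the control guide. Complexes IV and V had the higher subunit levels: the median FPKM was 231 with the HOXB13 guide and 163 with the control guide for complex IV, and 218 and 187 in that order for complex V. Complex I had medians of 103 FPKM with the HOXB13 guide and 87.9 FPKM with the control guide, complex III 102 and 83.5, and complex II 86.8 and 55.4, again in that order.

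**Figure D1:**
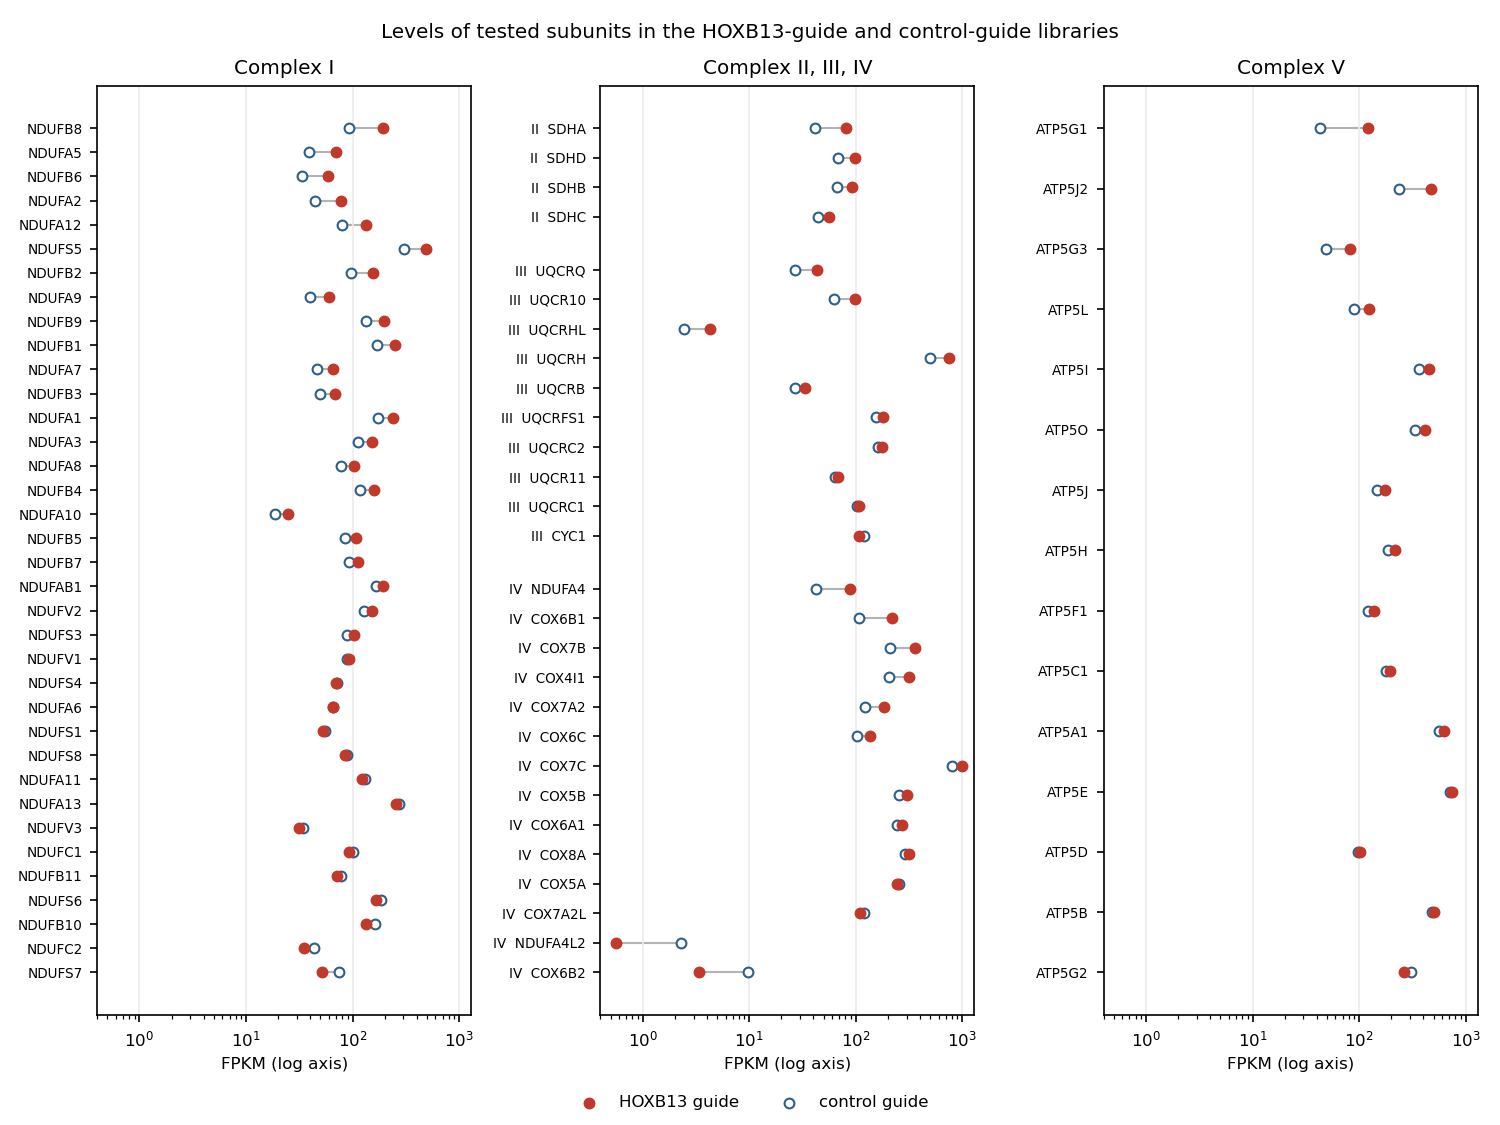
FPKM (log axis) of 79 of the 80 tested subunits, with the HOXB13-guide library as filled red points and the control-guide library as open blue points, sorted within each complex by ratio. ATP5G1 heads complex V at 120 FPKM with the HOXB13 guide and 43.1 FPKM with the control guide, and COX6B2 and NDUFA4L2 stand at the foot of complex IV with the lowest levels of the HOXB13-guide library.

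Complex I has a peripheral arm in the matrix, which holds the flavin and the iron-sulfur clusters, and a membrane arm that pumps protons. All its 37 nuclear subunits were tested, 24 of them had a ratio above 0, 1 was at least 2-fold higher and none was 2-fold lower, and the median log2 ratio was 0.32. When centred on the housekeeping genes this median was 0.014 and no subunit of the complex was past 2-fold. The 7 nuclear core subunits, which carry the redox centers, had a median of 0.08 (a direction that turns negative when ratios are centred on the housekeeping genes), and the 30 accessory subunits had a median of 0.42. At least 1.5-fold higher, a limit chosen after the data were seen, were 7 of the 30, where 11.8% of all tested genes were. The ratios of both kinds overlapped, with 3 of the 7 core subunits and 10 of the 30 accessory ones below 0, and the difference between them was not tested.

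Among the core subunits NDUFV1, which binds the flavin and receives electrons from NADH, had 92.6 FPKM with the HOXB13 guide and 87.9 FPKM with the control guide. Its partner NDUFV2, an iron-sulfur protein, had 152 FPKM with the HOXB13 guide and 129 FPKM with the control guide. NDUFS1, the largest subunit of the complex, had 53.0 FPKM with the HOXB13 guide and 55.3 FPKM with the control guide. These levels were close to each other in the 2 libraries. NDUFS3 had 103 FPKM with the HOXB13 guide and 88.1 FPKM with the control guide, and the iron-sulfur protein NDUFS8 had 85.0 and 88.8 FPKM in that order. NDUFS7, which carries the last cluster before the quinone, was farther below 0 than NDUFS1 and NDUFS8, at 52.0 FPKM with the HOXB13 guide and 74.0 FPKM with the control guide. Its log2 ratio of −0.50 was the lowest of complex I.

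The accessory subunits were led by NDUFB8 of the membrane arm. NDUFB8 (hg19 chr10:102283497-102289636) had 193 FPKM with the HOXB13 guide and 92.3 FPKM with the control guide, a log2 ratio of 1.06. NDUFA5, of the peripheral arm, had 70.4 FPKM with the HOXB13 guide and 39.3 FPKM with the control guide (log2 0.82). NDUFB6 had 58.7 FPKM with the HOXB13 guide and 33.4 FPKM with the control guide (log2 0.80). It belongs to the membrane arm, so both arms were represented. NDUFA2 and NDUFA12, also of the peripheral arm, followed: NDUFA2 had 77.6 FPKM with the HOXB13 guide and 44.5 FPKM with the control guide, and NDUFA12 had 135 and 80.4 FPKM in that order. The accessory subunits did not all share the direction, as 10 of the 30 had a ratio below 0. NDUFC2, of the membrane arm, had 34.8 FPKM with the HOXB13 guide and 43.6 FPKM with the control guide (log2 −0.31). Its locus is wholly contained in that of the readthrough symbol NDUFC2-KCTD14 (11.3 FPKM with the HOXB13 guide and 10.2 FPKM with the control guide), so reads are uncertain between them. NDUFB10 had 133 FPKM with the HOXB13 guide and 161 FPKM with the control guide, NDUFS6, a zinc-binding subunit, had 167 and 187 FPKM in that order, and NDUFB11, encoded on the X chromosome, had 70.9 and 78.0 FPKM. The accessory subunits of the arms did not differ much in their medians, with 0.42 for the 20 of the membrane arm and 0.49 for the 9 of the peripheral arm. The peripheral arm also holds the 7 core subunits, whose lower median of 0.08 is not part of this comparison. NDUFAB1, the acyl carrier protein that is present in both arms, had 195 FPKM with the HOXB13 guide and 165 FPKM with the control guide.

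Complex II, succinate dehydrogenase, is the only complex of the chain with no subunit from mitochondrial DNA, and it also works in the citrate cycle. Each of its 4 subunits had a ratio above 0 (median log2 0.49), none passed 2-fold as deposited, and the median stayed above 0 in every scaling tried. Under median and trimmed mean scaling SDHA was just past 2-fold (log2 1.01 in both). SDHA, the flavoprotein that oxidises succinate, had 81.7 FPKM with the HOXB13 guide and 41.6 FPKM with the control guide (log2 0.96). The iron-sulfur subunit SDHB had 91.9 FPKM with the HOXB13 guide and 66.8 FPKM with the control guide (log2 0.45). The membrane anchors SDHD and SDHC had 98.4 and 55.4 FPKM with the HOXB13 guide, against 68.1 and 44.1 FPKM with the control guide (log2 0.53 and 0.32). SDHA has partial copies in the genome. SDHAP1, SDHAP2 and SDHAP3 had 7.57, 9.04 and 9.84 FPKM with the HOXB13 guide, against 3.97, 4.34 and 7.83 FPKM with the control guide, and 8.31%, 6.97% and 11% of the 50-base words of the SDHA transcripts recurred in them. Part of the SDHA value is therefore uncertain between these loci.

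Complex III passes electrons on to cytochrome c. Of 10 tested members 9 had a ratio above 0, none passed 2-fold, and the median log2 ratio was 0.26, a direction that turned to −0.04 when centred on the housekeeping genes. UQCRFS1, the Rieske iron-sulfur protein, had 179 FPKM with the HOXB13 guide and 154 FPKM with the control guide (log2 0.22). CYC1, cytochrome c1, had 107 FPKM with the HOXB13 guide and 119 FPKM with the control guide (log2 −0.16). The core proteins UQCRC1 and UQCRC2, related to mitochondrial peptidases, had 107 and 178 FPKM with the HOXB13 guide, against 103 and 162 FPKM with the control guide. The redox and core subunits were thus within a range of log2 ratios from −0.16 to 0.22. The small subunits lay higher, with a median of 0.61 over 6 members. UQCRH, the hinge protein that contacts cytochrome c1, had 756 FPKM with the HOXB13 guide and 501 FPKM with the control guide (log2 0.59). Its intronless copy UQCRHL had 4.30 FPKM with the HOXB13 guide and 2.42 FPKM with the control guide, and since the longest stretch identical between their transcripts is 178 bases, reads can be shared. UQCRQ had 43.2 FPKM with the HOXB13 guide and 26.6 FPKM with the control guide (log2 0.68), and UQCR10 had 98.3 and 62.3 FPKM in that order (log2 0.65). Less apart were UQCRB, near the quinone pocket, at 33.3 FPKM with the HOXB13 guide and 26.7 FPKM with the control guide, and UQCR11, with 67.7 and 64.1 FPKM in that order. The pseudogene symbol UQCRBP1 had 15.5 FPKM with the HOXB13 guide and 12.4 FPKM with the control guide, and shares a stretch of 66 bases with UQCRB, so these reads are uncertain as well.

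Complex IV, cytochrome c oxidase, has nuclear subunits that exist as a widely expressed isoform and, for several of them, as a tissue-restricted one. The 11 widely expressed subunits, NDUFA4 included, had a median log2 ratio of 0.41, which stayed above 0 when centred on the housekeeping genes. Of the 11, 10 were above 0. Past 1.5-fold upwards, a limit chosen after the data were seen, were 5, with a background of 11.8%. Past 2-fold were 2 of those, with a background of 4.25%. NDUFA4 was first assigned to complex I and is now placed in complex IV. It had 88.0 FPKM with the HOXB13 guide and 42.1 FPKM with the control guide (log2 1.05). COX6B1 (hg19 chr19:36139125-36149686), which joins the monomers on the side of the intermembrane space, had 220 FPKM with the HOXB13 guide and 107 FPKM with the control guide (log2 1.03). COX7B had 358 FPKM with the HOXB13 guide and 209 FPKM with the control guide (log2 0.77), and COX4I1, the regulatory subunit to which adenine nucleotides bind, had 313 and 204 FPKM in that order (log2 0.61). COX7A2 had 185 FPKM with the HOXB13 guide and 122 FPKM with the control guide (log2 0.60). COX6C, another small transmembrane subunit, had 137 FPKM with the HOXB13 guide and 103 FPKM with the control guide. At the lower end COX5A, a matrix-facing subunit, had 241 FPKM with the HOXB13 guide and 254 FPKM with the control guide (log2 −0.07), COX5B had 303 and 257 FPKM, COX8A had 314 and 289 FPKM, and COX6A1 had 273 and 245 FPKM, in the same order. COX7A2L, which joins complex IV to complex III in supercomplexes, had 108 FPKM with the HOXB13 guide and 121 FPKM with the control guide (log2 −0.15).

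The restricted isoforms were low or listed at 0. Only 2 of the 7 were tested, and both were past 2-fold downwards, where 4.51% of all tested genes were. NDUFA4L2 reached the filter of 1 FPKM only with the control guide, so its count as lower is tied to the filter. With a pseudocount of 5 FPKM neither was past 2-fold. COX6B2, the testis isoform of COX6B, had 3.35 FPKM with the HOXB13 guide and 9.63 FPKM with the control guide (log2 −1.29). With the opposite ratio of COX6B1, COX6B2 made up 1.5% of the summed COX6B level with the HOXB13 guide and 8.22% with the control guide. NDUFA4L2, a paralog of NDUFA4 known as a target of hypoxia signalling, had 0.561 FPKM with the HOXB13 guide and 2.28 FPKM with the control guide (log2 −1.07). This rests on about 9 reads with the HOXB13 guide and 37 with the control guide, counted with the shortest annotated transcript. COX4I2, the lung and hypoxia isoform, COX6A2, of heart and skeletal muscle, and COX7B2 were listed at 0 in both libraries. COX7A1, the muscle isoform, had 0.152 FPKM with the HOXB13 guide and COX8C had 0.259 FPKM there, and both were listed at 0 with the control guide. The median of all 14 tested members of complex IV was 0.28, and it turned to −0.03 when centred on the housekeeping genes.

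**Figure D2:**
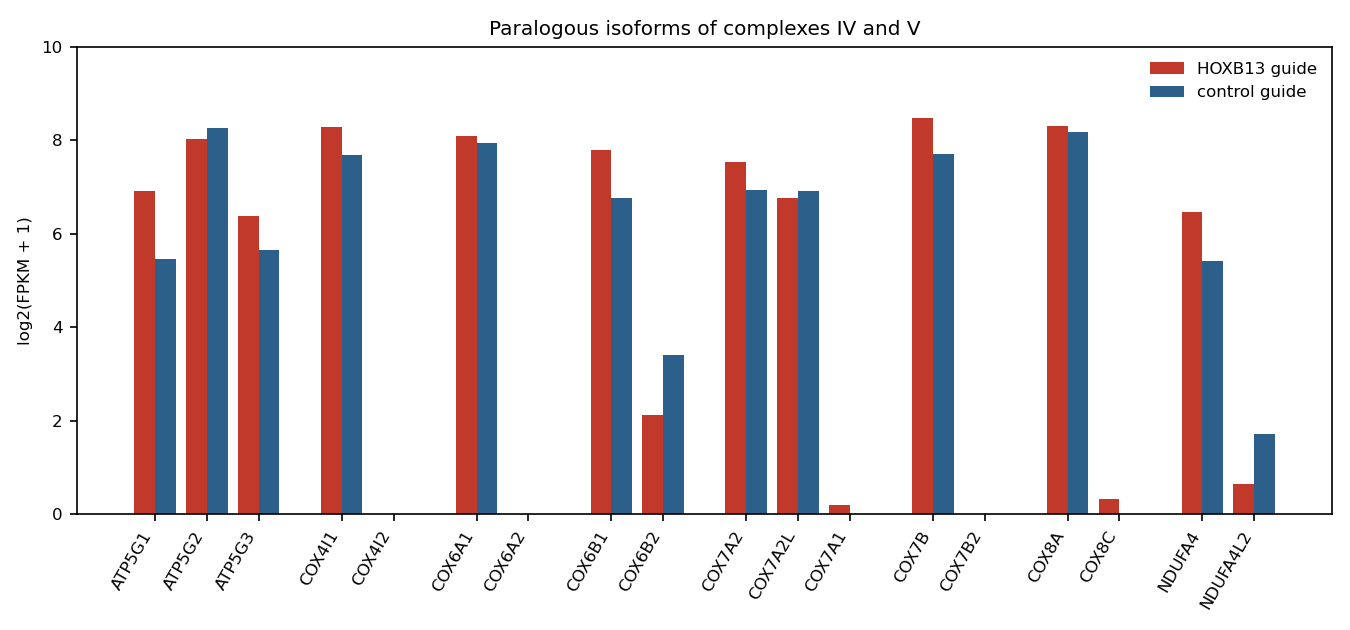
log2(FPKM + 1) of the paralogous isoforms of the c subunit and of complex IV, with red bars for the HOXB13-guide library on the left and blue bars for the control-guide library on the right of each pair. ATP5G1 and ATP5G3 were higher and ATP5G2 was lower with the HOXB13 guide, the widely expressed COX isoforms were near or above 6 on this scale, and the restricted isoforms were at or near 0 except COX6B2 and NDUFA4L2.

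Complex V consists of F1, which makes ATP in the matrix, and Fo, which holds the proton-driven ring of c subunits, joined by stalks. Of its 15 tested subunits 14 had a ratio above 0, 1 was at least 2-fold higher and none was 2-fold lower, and the median log2 ratio was 0.22 (−0.09 when centred on the housekeeping genes). The 5 subunits of F1 were nearly even: their ratios ran from 0.06 to 0.14 on the log2 scale, all above 0 as deposited and all below 0 when centred on the housekeeping genes. The catalytic beta subunit ATP5B had 505 FPKM with the HOXB13 guide and 483 FPKM with the control guide. The alpha subunit ATP5A1 had 621 FPKM with the HOXB13 guide and 565 FPKM with the control guide, and the gamma subunit ATP5C1, which forms the rotating shaft, had 196 and 178 FPKM in that order. The small subunits of the shaft were as even: ATP5D (delta) had 102 FPKM with the HOXB13 guide and 96.8 FPKM with the control guide, and ATP5E (epsilon) had 749 and 707 FPKM in that order.

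Fo and the stalk were less even. ATP5J2, the f subunit, had 472 FPKM with the HOXB13 guide and 238 FPKM with the control guide (log2 0.98). Its locus is part of the readthrough symbol ATP5J2-PTCD1, which had 3.40 FPKM with the HOXB13 guide and 0.723 FPKM with the control guide (log2 1.35), so the reads of the shared exons are uncertain between the pair. The g subunit ATP5L had 124 FPKM with the HOXB13 guide and 90.1 FPKM with the control guide, and the e subunit ATP5I had 457 and 362 FPKM in that order. These subunits sit in the membrane where ATP synthase dimers form. Those of the peripheral stalk had smaller ratios: ATP5O, which caps F1, had 0.31, ATP5J 0.26, ATP5H 0.22 and ATP5F1 0.18 on the log2 scale. ATP5L2, a copy of ATP5L, was not tested, at 0.0712 FPKM with the HOXB13 guide and 0.0698 FPKM with the control guide.

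Within complex V the c subunit genes had both the highest and the lowest ratio. The c subunit is encoded by 3 genes, ATP5G1, ATP5G2 and ATP5G3 (now ATP5MC1, ATP5MC2 and ATP5MC3), whose precursors differ in the import sequence and give the same mature protein. ATP5G1 (hg19 chr17:46970148-46973232) had 120 FPKM with the HOXB13 guide and 43.1 FPKM with the control guide, a log2 ratio of 1.46 and the highest of all subunits. ATP5G3 (hg19 chr2:176040986-176046490) had 82.3 FPKM with the HOXB13 guide and 49.1 FPKM with the control guide (log2 0.73). ATP5G2 (hg19 chr12:54058944-54070512) had 262 FPKM with the HOXB13 guide and 305 FPKM with the control guide (log2 −0.22). ATP5G2 was the most abundant of the 3 in both libraries, and its share was smaller with the HOXB13 guide. ATP5G1 held 25.9% of the summed level of the 3 genes with the HOXB13 guide and 10.8% with the control guide. ATP5G2 held 56.4% with the HOXB13 guide and 76.8% with the control guide, and ATP5G3 held 17.7% and 12.3% in that order. Summed, the c subunit genes had 465 FPKM with the HOXB13 guide and 398 FPKM with the control guide, a ratio of 1.17, within the range of the other subunits of complex V. No 50-base word was shared between the transcripts of these 3 genes, the longest identical stretch being 20 bases, so their reads can be told apart from each other.

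Reads were estimated from the depth and the shortest annotated transcript of each gene, which makes the estimates approximate, and low where longer transcripts are present. For UQCRHL they are too high, as its annotated transcript of 2180 nt is longer than its measured locus (hg19 chr1:16133657-16134194). ATP5G1 stood for about 445 reads with the HOXB13 guide and 162 with the control guide, and its ratio of FPKM without the pseudocount was 2.80 (exact 95% interval 2.34 to 3.38). NDUFB8 had a ratio of 2.09 (1.94 to 2.25), NDUFA4 of 2.09 (1.98 to 2.21) and COX6B1 of 2.05 (1.86 to 2.26). The interval of the ratio lay above 1 for 58 of the 80 subunits, below 1 for 11 and around 1 for the other 11. The 58 include UQCRHL, whose interval of 1.40 to 2.25 is too narrow because its reads are overestimated. Such intervals cover counting error only, not the spread between cultures, which a single library per group cannot show. They also rest on FPKM as deposited, and they were not counted again under other scalings. When centred on the housekeeping genes, 42 of the 80 log2 ratios were above 0, against 61 as deposited.

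**Figure D3:**
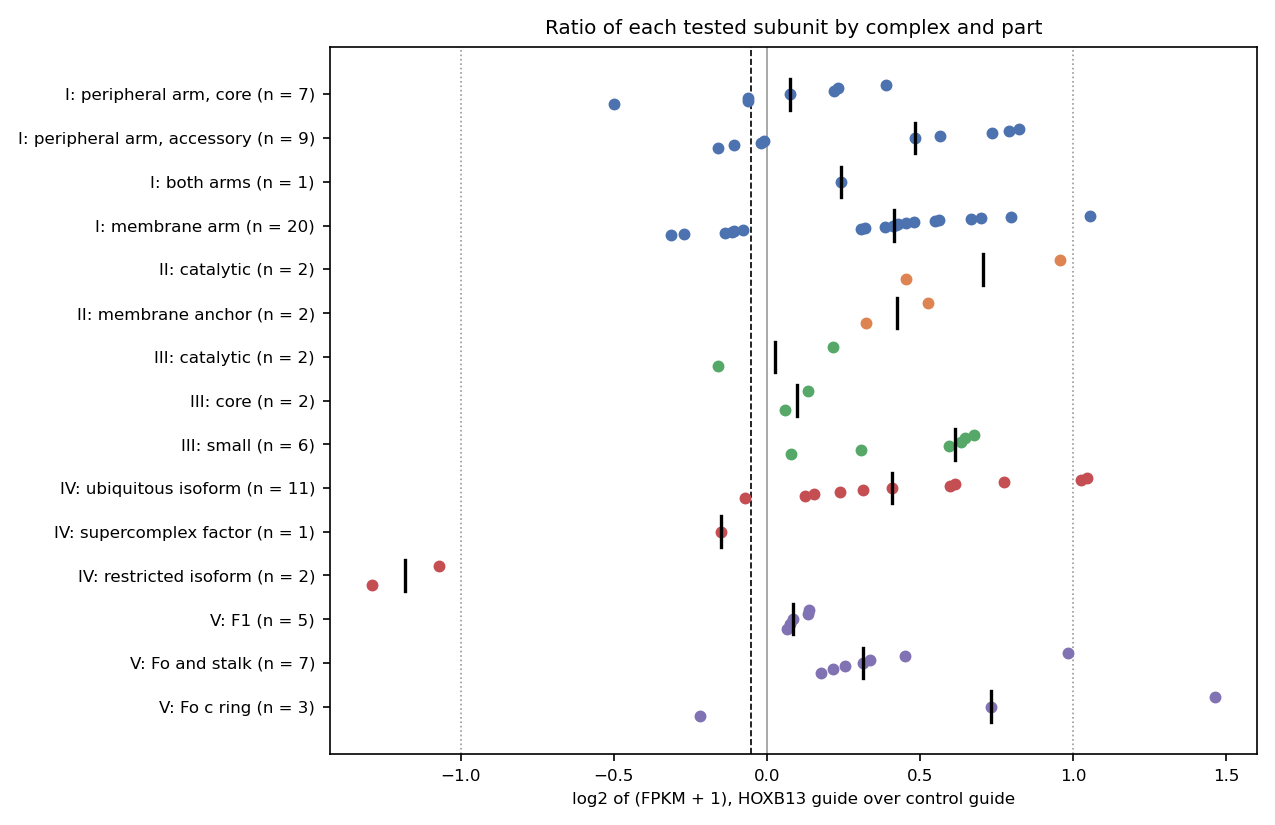
log2 ratio of (FPKM + 1), HOXB13-guide library over control-guide library, for each tested subunit, by complex and part, with the median of each part as a black bar, dotted lines at 2-fold and a dashed line at the median of all tested genes (−0.05). The F1 subunits lie close together (0.06 to 0.14) and the core subunits of complex I are spread more widely around a median of 0.08, down to −0.50, and centring on the housekeeping genes turns all F1 ratios and this median negative. The accessory subunits of complex I (median 0.42) overlap with the core.

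The start regions of the leading subunits are shown because nuclear respiratory factor 1 (NRF1), ETS-family factors such as GABP, and YY1 are known regulators of many oxidative phosphorylation genes. The windows run from 250 bases before to 50 bases after the start of the gene, 5′ to 3′ on the strand of the gene, from RefSeq on GRCh38.p14, a build other than that of the measured loci. They belong to the subunit with the highest ratio in each complex that had an entry (NDUFA4 and ATP5G3 are named only), and to ATP5G2 as the counterpart of ATP5G1. Where a gene had several windows, the first listed was taken. Capitals mark matches, on either strand, to GCGC, any base and TGCGC in a row for NRF1, CCGGAAG for ETS factors or AAGATGGC for YY1.
NDUFB8 (chr10:100529874-100530173, minus strand): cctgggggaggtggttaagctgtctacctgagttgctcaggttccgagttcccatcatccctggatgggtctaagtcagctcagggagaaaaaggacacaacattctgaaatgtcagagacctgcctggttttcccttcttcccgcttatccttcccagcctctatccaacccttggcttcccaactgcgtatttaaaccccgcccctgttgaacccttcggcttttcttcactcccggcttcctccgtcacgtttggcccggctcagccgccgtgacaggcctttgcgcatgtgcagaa
SDHA (chr5:218070-218369, plus strand): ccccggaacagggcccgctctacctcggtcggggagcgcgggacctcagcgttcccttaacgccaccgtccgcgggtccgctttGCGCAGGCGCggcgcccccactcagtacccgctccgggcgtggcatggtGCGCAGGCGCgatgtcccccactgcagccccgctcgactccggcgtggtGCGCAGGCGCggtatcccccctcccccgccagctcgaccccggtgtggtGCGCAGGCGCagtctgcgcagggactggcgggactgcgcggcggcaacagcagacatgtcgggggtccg
UQCRQ (chr5:132866392-132866691, plus strand): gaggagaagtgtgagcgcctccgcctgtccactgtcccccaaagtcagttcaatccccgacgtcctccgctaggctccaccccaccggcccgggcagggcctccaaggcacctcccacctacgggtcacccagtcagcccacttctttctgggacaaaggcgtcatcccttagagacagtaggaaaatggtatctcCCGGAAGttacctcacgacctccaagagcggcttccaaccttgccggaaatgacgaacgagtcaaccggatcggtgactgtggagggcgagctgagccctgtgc
COX6B1 (chr19:35648073-35648372, plus strand): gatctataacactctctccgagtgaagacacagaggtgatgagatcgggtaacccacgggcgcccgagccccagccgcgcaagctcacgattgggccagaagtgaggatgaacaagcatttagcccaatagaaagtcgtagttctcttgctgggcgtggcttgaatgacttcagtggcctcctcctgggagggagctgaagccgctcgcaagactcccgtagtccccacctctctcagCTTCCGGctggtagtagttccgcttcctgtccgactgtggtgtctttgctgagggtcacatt
ATP5G1 (chr17:48892537-48892836, plus strand): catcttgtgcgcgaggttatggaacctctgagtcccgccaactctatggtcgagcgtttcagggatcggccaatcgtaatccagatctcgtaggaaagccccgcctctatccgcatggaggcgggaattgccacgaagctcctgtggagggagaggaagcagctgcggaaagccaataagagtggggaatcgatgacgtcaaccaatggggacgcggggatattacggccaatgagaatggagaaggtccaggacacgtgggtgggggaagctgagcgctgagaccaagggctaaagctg
ATP5G2 (chr12:53676034-53676333, minus strand): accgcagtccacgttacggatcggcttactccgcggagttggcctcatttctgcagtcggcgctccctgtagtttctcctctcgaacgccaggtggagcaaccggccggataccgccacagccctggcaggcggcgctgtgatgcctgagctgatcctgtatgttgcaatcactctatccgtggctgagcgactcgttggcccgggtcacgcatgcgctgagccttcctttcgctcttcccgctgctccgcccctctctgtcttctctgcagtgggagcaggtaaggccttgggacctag

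The SDHA window held 4 matches to the NRF1 letters, UQCRQ and COX6B1 held 1 match each to the ETS letters, and these letters were not found in the windows of NDUFB8, ATP5G1 and ATP5G2. Of the 80 tested subunits 65 had an entry, with 79 windows. At least 1 of the 3 motifs was found in 39 of these 79 windows, or 49.4%, and in 17.0% of all 35116 windows of the table. The NRF1 letters were in 19.0% of the subunit windows (5.78% of all), the ETS letters in 26.6% (10.3% of all) and the YY1 letters in 16.5% (2.89% of all). The motifs can overlap, which happened in 10 of the 35116 windows. Of the subunits past 1.5-fold upwards 8 of 19 windows held a motif, and among the remaining subunits 31 of 60 did. A match is a string of letters and not a shown binding site.

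The transcripts of these factors were measured as well. NRF1 had 4.84 FPKM with the HOXB13 guide and 7.55 FPKM with the control guide (log2 −0.55). GABPB1, the partner subunit of the ETS factor GABPA, had 9.12 FPKM with the HOXB13 guide and 19.5 FPKM with the control guide (log2 −1.02). GABPA itself had a log2 ratio of 0.06 and YY1 of −0.30, both added after their values were seen. Of 22 tested regulators of mitochondrial gene expression, which include coactivators and the mitochondrial transcription machinery, 16 had a ratio below 0, as did 6514 of all 11970 tested genes. Past 2-fold downwards was 1, near the background of 4.51%, and none was past it upwards, and the median was −0.15. TFB1M, which methylates mitochondrial ribosomal RNA, had 4.48 FPKM with the HOXB13 guide and 7.27 FPKM with the control guide, and MTERF, a terminator of mitochondrial transcription, had 10.5 and 6.84 FPKM in that order.

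Assembly factors, which build the complexes without staying in them, did not share the ratios of the subunits. Of the 7 NDUFAF genes 5 had a ratio below 0 and none passed 2-fold, with a median log2 ratio of −0.27. NDUFAF2, a paralog of NDUFA12 that holds its place during assembly, had 58.3 FPKM with the HOXB13 guide and 107 FPKM with the control guide (log2 −0.87), whereas NDUFA12 was higher (log2 0.74). NDUFAF4 and NDUFAF3, which act together early in assembly, had 6.70 and 42.3 FPKM with the HOXB13 guide, against 11.7 and 56 FPKM with the control guide (log2 −0.72 and −0.40). NDUFAF6 had 7.03 FPKM with the HOXB13 guide and 8.66 FPKM with the control guide, and NDUFAF5, which modifies NDUFS7, had 5.60 and 5.99 FPKM in that order. On the other side of 0 were NDUFAF7, a methyltransferase, at 12.4 FPKM with the HOXB13 guide and 11.7 FPKM with the control guide, and NDUFAF1, with 21.8 and 17.1 FPKM in that order.

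The lists for the other complexes had medians closer to 0. With the NDUFAF genes, 54 genes of these lists were tested, of which 32 had a ratio below 0, as did 6514 of all 11970 tested genes. The 54 include accessory proteins of complex V and its inhibitor, which are not assembly factors. At least 2-fold lower was 1, where 4.51% of all were, and none was 2-fold higher. Their median was −0.11, not far from that of all tested genes (−0.05). Complex IV had the largest list, with 12 of 21 below 0 and a median of −0.12. COX19, which takes part in copper delivery, had 3.31 FPKM with the HOXB13 guide and 8.91 FPKM with the control guide (log2 −1.20). SURF1, an early factor of complex IV, had 10.5 FPKM with the HOXB13 guide and 21.6 FPKM with the control guide (log2 −0.98). TACO1, an activator of translation of a mitochondrial subunit, had 23.2 FPKM with the HOXB13 guide and 37.3 FPKM with the control guide, and CMC1 had 30.4 and 48.3 FPKM in that order. These were the members of the list farthest from 0. For complex I outside the NDUFAF genes the median was −0.12 over 9 genes, with COA1 at 111 FPKM with the HOXB13 guide and 80.5 FPKM with the control guide. TMEM186, TMEM126B and NUBPL of that list had log2 ratios of −0.35, −0.34 and −0.24. The 4 factors of complex II had a median of −0.18, with C6orf57 at 25.5 FPKM with the HOXB13 guide and 39.5 FPKM with the control guide. For ACN9 the log2 ratio was −0.33, for SDHAF2 0.06 and for SDHAF1 −0.03. The 7 genes of complex III had a median of −0.16, with TTC19 at 22.6 FPKM with the HOXB13 guide and 36.4 FPKM with the control guide. HCCS, which attaches heme to cytochrome c, had a log2 ratio of 0.45, MNF1 −0.42 and LYRM7 −0.29. The 7 genes of complex V, which include accessory proteins and the inhibitor, had a median of 0.04, a direction that centring on the housekeeping genes turns negative, with log2 ratios of 0.52 for C7orf55, 0.47 for ATPAF2, −0.33 for ATPAF1 and 0.30 for USMG5.

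**Figure D4:**
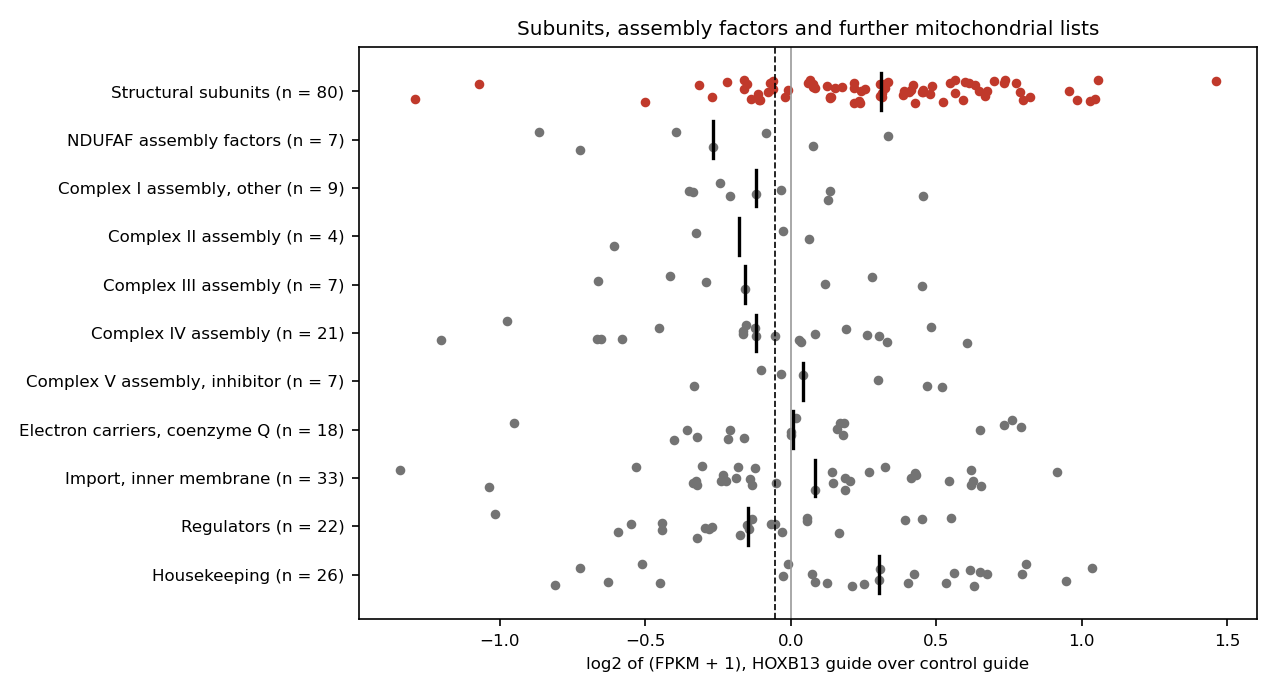
log2 ratio of (FPKM + 1), HOXB13-guide library over control-guide library, for the 80 tested subunits (red) and for assembly factors and further lists (grey), with the median of each as a black bar and a dashed line at the median of all tested genes (−0.05). The subunit median of 0.31 equals that of the housekeeping genes to 2 decimals, and the NDUFAF median is −0.27.

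Subunit mRNAs are short, so the ratios were set beside length. The median transcript length, over the annotated protein-coding transcripts of a gene, was 764 nt for the 80 subunits and 2468 nt for the 11602 tested genes with a length. Subunits of up to 750 nt had a median log2 ratio of 0.42 (38 genes), those of 750 to 1000 nt 0.28 (14 genes), those of 1000 to 2000 nt 0.07 (18 genes, a direction that centring on the housekeeping genes turns negative, as for the class before) and those of 2000 to 5000 nt 0.30 (10 genes, likewise). The class of 2000 to 5000 nt includes UQCRHL, whose annotated transcript of 2180 nt is longer than its measured locus. Without UQCRHL the median ratio of this class was lower. Its annotated length also entered the length medians and the correlation of this paragraph. Other protein-coding genes of up to 750 nt had a median of 0.04 (360 genes), and those of 750 to 1000 nt −0.05 (540 genes). The lower core subunits were also the longer ones: the median length was 1839 nt for F1 and 1039 nt for the core of complex I, against 728 nt for the membrane arm of complex I, 698 nt for the small subunits of complex III and 614 nt for Fo and the stalk. The part of length in the ratios of core and accessory subunits was not tested. Across the 80 subunits the Spearman correlation of the ratio was −0.29 with length and −0.02 with mean level, as descriptions of genes that share both libraries.

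The symbols kept apart from the complexes had small values in part. ATP5S, a factor related to coupling of the ATP synthase, had 7.89 FPKM with the HOXB13 guide and 9.06 FPKM with the control guide, and ATP5SL had 34.5 and 28.4 FPKM in that order. NDUFB2-AS1, whose locus overlaps that of NDUFB2 by 397 bases, had 0.529 FPKM with the HOXB13 guide and 0.634 FPKM with the control guide and was not tested. Without strand, reads from such a pair cannot be told apart. NDUFB2 had 154 FPKM with the HOXB13 guide and 96.8 FPKM with the control guide, far above its antisense partner. The pseudogene symbols NDUFAF4P1, at 0.0800 FPKM with the HOXB13 guide and 0.0392 FPKM with the control guide, and ATP5EP2, listed at 0 with the HOXB13 guide and with 0.251 FPKM with the control guide, were not tested.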

How the data were processed

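Total RNA of 2 libraries was depleted of ribosomal RNA and prepared for sequencing with Ion PI reagents, per the labels' protocols. The authors deposited 1 table of FPKM per library, each with 25001 rows of a symbol, a locus and a value. The submitters' processing notes name hg19, Bowtie, TopHat and Cufflinks, and their versions, settings and use of strand are not given in the sources used here. Values written as 0.001 were taken as 0, failed estimates (3 with the HOXB13 guide and 2 with the control guide, none of a member) were left out, and rows that share a symbol were summed. Each library came from 1 sample title, which gave its group.

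No test was run, since a group is 1 library. Past 2-fold is a limit of size on the log2 ratio with a pseudocount of 1 FPKM. The members, lists and complexes were chosen with earlier results of these data known. Genes were named by rule: all members of complexes II and III, the 5 highest and 5 lowest ratios of complexes I, IV and V at 5 FPKM or more, core, F1, isoform and NDUFAF genes, and up to 4 genes per list with the largest absolute ratio. Other genes named (the copies of SDHA, NDUFB2, NDUFAB1, COX5B, COX7C, ATP5O to ATP5F1, ATP5L2, GABPA, YY1 and the symbols kept apart) were added after their values were seen. The values of 1 member that the rule names are not reported here, and it is counted in the sets.

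Depth came from 93 single-exon genes below 0.3 FPKM, of which 58 gave a common depth when 202 bases were subtracted from the length, an offset chosen because it gave the most such genes. Transcript lengths came from GENCODE 29, another build, used for lengths and shared words only. The calculation was tested on simulated data. Software was Python 3.11.15 with scipy 1.17.1 for the exact intervals, pandas 2.3.3 and numpy 2.4.6 for tables and matplotlib 3.10.9 for figures. Alternatives covered the pseudocount, the filter, 5 scalings, rows per symbol and the place of NDUFA4.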

Additional observations from a re-analysis of the deposited data

How the results depend on the processing

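Medians were taken as moved when they shifted by 0.1 or more on the log2 scale or changed sign, and counts when they changed by more than 1.5 times. Under equal totals, upper quartile, median and trimmed mean scaling, pseudocounts of 0.1 and 5 FPKM, either filter and the highest row per symbol, the 6 medians kept their direction and moved by less than that. Centring on the median of the 26 housekeeping genes, which moved the median of all tested genes to −0.36, changed most: the median of all subunits was 0.0046, that of complex I 0.014, of complex II 0.18, of complex III −0.044, of complex IV −0.030 and of complex V −0.089, and 1 subunit was past 2-fold upwards. With it, 42 of the 80 subunits were above 0. The number at least 2-fold higher, 4 as deposited, was 5 with upper quartile scaling and 6 with median or trimmed mean scaling. It was 3 with a pseudocount of 5 FPKM. The number at least 2-fold lower, 2 as deposited, was 0 with a pseudocount of 5 FPKM and 1 with a filter of 5 FPKM. A limit of 1.5-fold, added after the data were seen, gave 20 higher. Placing NDUFA4 and NDUFA4L2 in complex I, or leaving out UQCRHL, or COX6B2 and NDUFA4L2 (both added after the data were seen), moved no median by 0.1. Of 798 single-subunit values, pooled over the alternatives, 88 moved beyond their counting error, most of them under centring on the housekeeping genes. Under that centring 61 of the 80 subunits kept the sign of their ratio, against 78 under upper quartile, median and trimmed mean scaling. No paired analysis was possible because each group had 1 library. The depth limits NDUFA4L2, COX6B2 and UQCRHL most, whose low levels rest on few reads.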

Other observations

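Genes of protein import and of the inner membrane went both ways, with 17 of 33 tested members above 0, where 45.6% of all tested genes were. None was past 2-fold upwards and 2 were past it downwards, near the background of 4.51%. The median log2 ratio was 0.08, below 0 when centred on the housekeeping genes. The ADP and ATP carrier SLC25A5, which exchanges the product of the ATP synthase, had 404 FPKM with the HOXB13 guide and 214 FPKM with the control guide (log2 0.91), and the phosphate carrier SLC25A3 had 441 and 280 FPKM in that order (log2 0.66). TIMM44, which ties the import motor to the inner membrane, had 28.8 FPKM with the HOXB13 guide and 74.6 FPKM with the control guide (log2 −1.34), and the intermembrane chaperone TIMM9 had 33.4 and 69.6 FPKM in that order (log2 −1.04).

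Of 18 tested genes of electron carriers and coenzyme Q synthesis 11 had a ratio above 0, where 45.6% of all tested genes did. None passed 2-fold, and the median was 0.01, below 0 when centred on the housekeeping genes. COQ2 and COQ6, enzymes of coenzyme Q synthesis, had 21.7 and 11.4 FPKM with the HOXB13 guide, against 12.4 and 6.46 FPKM with the control guide. COQ5, a methyltransferase of the same route, had 25.4 FPKM with the HOXB13 guide and 50.1 FPKM with the control guide. ETFDH, which passes electrons from fatty acid oxidation to coenzyme Q, had 10.4 FPKM with the HOXB13 guide and 5.57 FPKM with the control guide.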
